A study of Mus musculus with 3 samples.

Results

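Narrow intergenic peaks are those that the peak caller Pyicoclip listed from AGO2 immunoprecipitation at a width of at most 30 nt. Their midpoints lay in the span of no annotated gene. Whether AGO2 bound RNA at each of these peaks was not tested. They were chosen by peak width and gene position, and numbered 398 of 2068 Pyicoclip peaks. The 3 libraries were one group of HITS-CLIP samples (crosslinking and immunoprecipitation followed by sequencing) of P19, a mouse embryonal carcinoma cell line, made with the 2D4 antibody against AGO2. No treatment, genotype change or control library is named for them. The values were 4 peak lists, 1 each from CIMS, Piranha, Pyicoclip and PIPE-CLIP, in which the libraries are not separate, so no spread between libraries could be given and their depth is unknown.

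Argonaute proteins carry a microRNA and use its seed, the bases near its 5′ end, to find partly matching RNA. AGO2 is best known for holding microRNAs on messenger RNAs, most often in the 3′ part of the transcript. A site outside every annotated gene has no annotated target RNA. Known kinds of RNA from such places are transcripts that an annotation does not hold and short RNAs made next to promoters. P19 cells resemble cells of the early embryo. Among marker genes of such cells, the Lin28a span held 4 Pyicoclip peaks and the Lefty1 span held 3, while Sox2 and Nanog held none in any of the 4 lists. Pou5f1 held 1 PIPE-CLIP cluster and no other peak. Peaks of an immunoprecipitation do not give expression, so these counts are no measure of the cell type.

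All positions are in mm10, counted from 1. The deposited score has no stated unit and was used only to describe and rank peaks within a list, and 10 was the lowest score deposited. The 398 peaks covered 9802 nt in all. Their widths ran from 18 to 30 nt, with a median of 25 nt and quartiles of 23 and 27 nt. At the limit of the definition, the 10 peaks of 30 nt had scores of 10 to 20 with a median of 12, and 9 of them overlapped a Piranha peak. The 12 intergenic peaks of 31 nt had scores of 10 to 27 with a median of 12, and 8 of them overlapped Piranha.

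The bases under a peak could be read only where the peak lay wholly in a RefSeq promoter window (GRCm38.p6, from 250 bases before to 50 after a gene start), which was so for 6 peaks. They are shown because they lie at annotated gene starts and let the letters under the peaks be compared with microRNA seeds. Capitals mark the peak and lower case its flank of up to 40 bases, with flanks ended at a gene span or at the end of the promoter window. Each is written 5′ to 3′ on the strand of the peak or, for the first 2, which have no strand, on the strand of the gene.
Map3k9, chr12:81781381-81781406, minus strand: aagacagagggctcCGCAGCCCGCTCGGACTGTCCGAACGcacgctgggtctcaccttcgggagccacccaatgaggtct
Slc25a17, chr15:81360920-81360946, minus strand: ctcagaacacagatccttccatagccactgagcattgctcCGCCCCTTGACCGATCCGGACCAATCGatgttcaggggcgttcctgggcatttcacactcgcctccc
Cyp2a12, chr7:27029074-27029100, minus strand: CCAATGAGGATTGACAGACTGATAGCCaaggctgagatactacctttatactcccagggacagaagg
Hsp90ab1 and Gm35399, chr17:45573271-45573299, minus strand: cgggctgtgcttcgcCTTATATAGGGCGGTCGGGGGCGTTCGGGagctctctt
Sectm1b, chr11:121063615-121063634, minus strand: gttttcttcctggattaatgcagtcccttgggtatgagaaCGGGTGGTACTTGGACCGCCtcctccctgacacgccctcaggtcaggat
Acbd5, chr2:23068068-23068087, minus strand: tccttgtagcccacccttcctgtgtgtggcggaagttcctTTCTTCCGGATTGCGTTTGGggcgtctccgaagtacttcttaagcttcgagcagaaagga

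The Hsp90ab1 run of 53 bases is the whole gap between the end of the Hsp90ab1 span at 45573261 and the start of Gm35399 at 45573315. Hsp90ab1 encodes an abundant cytosolic chaperone. The Cyp2a12 peak is the only one of the 6 that reached into a gene span, with its midpoint 3 nt before the start of this cytochrome P450 gene. It lay on the strand opposite to the gene, as did the Acbd5 peak, whose midpoint was 124 nt before the gene start. Sectm1b was on the strand of its gene, 55 nt before the start. The peaks of Map3k9, a kinase gene of the JNK pathway, and Slc25a17, a peroxisomal carrier gene, had no strand and lay 223 and 168 nt before the start. Starts here are those of the promoter windows. The gene spans of Acbd5 and Sectm1b reached further out, to 79 and 30 nt from the edge of the peak.

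G and C made up 73.1% of the Map3k9 peak, 70.0% of Sectm1b, 66.7% of Slc25a17, 65.5% of the Hsp90ab1 peak, 50.0% of Acbd5 and 48.1% of Cyp2a12. Over all 32851 promoter windows the share was 53.8%. The 6 peaks were thus on both sides of the average promoter, with 4 of them above it.

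Matches to microRNA seeds, bases 2 to 8 in capitals, were sought on both strands as the reverse complement of the seed. The microRNAs are ones known from pluripotent or dividing cells and let-7, which is known from differentiated cells. Sites of mmu-miR-302a-3p were planned but not sought, because the microRNA sequences used held no entry of that name.
mmu-miR-294-3p: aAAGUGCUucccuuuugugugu
mmu-miR-17-5p: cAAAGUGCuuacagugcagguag
mmu-miR-92a-3p: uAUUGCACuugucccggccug
mmu-let-7a-5p: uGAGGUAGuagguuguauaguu
None of the 4 sites (AGCACTT for miR-294, GCACTTT for miR-17, GTGCAAT for miR-92a and CTACCTC for let-7a) was found in the 6 peaks or in their printed flanks. The sites of miR-294 and miR-17 overlap each other in 6 letters. Of all promoter windows of 300 bases, 4.2%, 3.14%, 1.59% and 3.85% held the site in that order, and of all stretches of 30 bases within them 0.347%, 0.26%, 0.133% and 0.323% did. With 6 short peaks, finding none says only that these letters are not in these windows.

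The first question was how far the narrow intergenic peaks lay from genes. The peak at S100a10, which encodes a partner of annexin A2, was 15 nt from the gene span, and that at Cpq, a carboxypeptidase gene, 40 nt. Arl2bp, which encodes a binding partner of the small GTPase ARL2, had a peak 50 nt before its start, and Rundc3a had one 80 nt from its span. The peaks at Neurl3 and at Tmem189, a gene of plasmalogen synthesis, were 115 and 151 nt away. Together with Cyp2a12, Hsp90ab1, Sectm1b and Acbd5, these were the 10 nearest, and all 10 were protein-coding genes.

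Such short distances were the exception. The median distance to the nearest gene span was 13771.5 nt, with quartiles of 4034.25 and 39935.5 nt. Of the 398 peaks, 10.1% lay within 1000 nt of a gene (95% Wilson interval 7.47 to 13.4), 27.6% within 5000 nt (23.5 to 32.2), 42.7% within 10000 nt (37.9 to 47.6) and 90.2% within 100000 nt (86.9 to 92.7). Wider intergenic peaks had like distances, with a median of 13105.5 nt for 74 peaks of 31 to 60 nt and 12530 nt for the peaks over 60 nt. Intervals of shares count each peak as independent, and they cover counting error only.

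The distances can be set against all bases that lie in no gene, counted exactly between the first and the last gene of each chromosome. The median distance of these gene-free bases was 24684 nt, and 4.42% of them lay within 1000 nt, 18.1% within 5000 nt and 29.9% within 10000 nt. Each of these shares was below the interval for the narrow intergenic peaks, which were thus nearer to genes than gene-free bases are on average. The gene-free bases were not limited to those that reads can be aligned to, and what this does to the comparison was not tested. Gene-free bases made up 53.9% of the length between the first and the last genes. Of the 1076 narrow Pyicoclip peaks, 37.0% were intergenic (34.2 to 39.9), and of all 2068 Pyicoclip peaks 597 were. These values are given as a description.

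**Figure D1:**
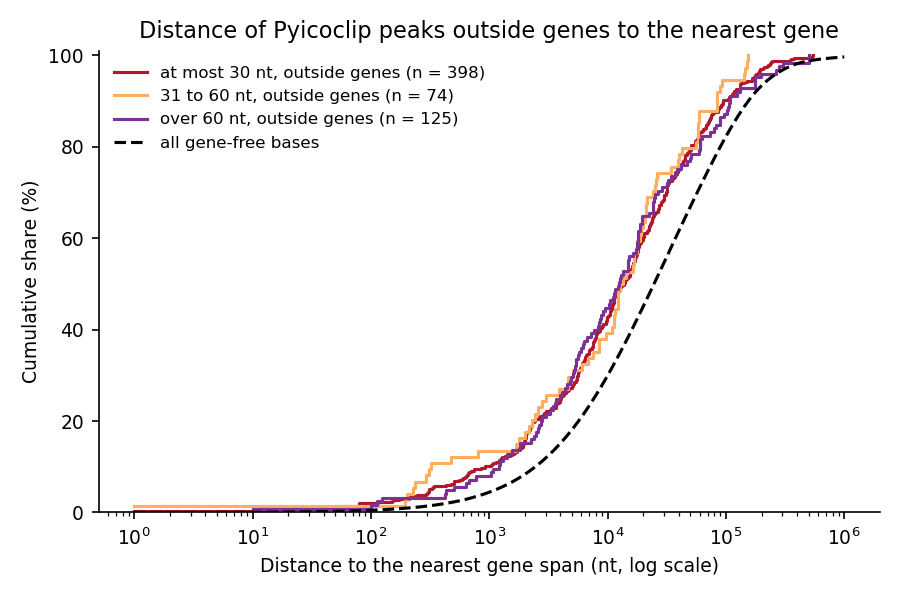
Cumulative share of intergenic Pyicoclip peaks (y axis, %) by distance to the nearest gene span (x axis, nt, log scale, with 0 drawn at 1) for 3 width classes, with all gene-free bases as the dashed line. The 3 classes run close together, with medians of 12530 to 13771.5 nt, left of the gene-free bases at 24684 nt.

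The nearest gene was protein-coding for 156 of the 398 peaks (39.2%), a long non-coding RNA for 136 (34.2%) and a pseudogene for 88 (22.1%). Small nucleolar RNA genes were nearest for 9 peaks (2.26%), small nuclear RNA genes for 4 (1.01%) and a microRNA gene for 1 (0.251%). Transfer and ribosomal RNA genes were nearest for none. For intergenic peaks over 30 nt, the nearest gene was protein-coding in 35.2%, long non-coding in 22.6% and a pseudogene in 34.2%. Of the genes in the annotation, 43.8% were protein-coding, 25.5% long non-coding and 21.2% pseudogenes. Small nucleolar, small nuclear and microRNA genes made up 2.68%, 2.01% and 2.46% of it, and transfer and ribosomal RNA genes 0.86% and 0.13%. The annotation shares do not allow for the gene-free length beside each type, and no difference was tested. Among the 170 narrow intergenic peaks within 10000 nt of a gene, the counts were 92 protein-coding, 51 long non-coding and 23 pseudogenes.

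None of 20 pluripotency genes, 15 RNA silencing genes, 8 neural and muscle genes or 77 polymerase III and ribosomal RNA genes had a narrow intergenic peak within 10000 nt. Of all 49976 genes of the table, 236 did (0.472%). Outside these lists, Foxd3, a transcription factor gene of pluripotent cells and neural crest, was the nearest gene of 2 peaks, as described with the spacing of the peaks.

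Strand was compared next, since RNA that runs on from a gene would lie downstream of it on the same strand. Il19, a cytokine gene, had such a peak 208 nt downstream on its own strand, Ppcdc, a gene of coenzyme A synthesis, had one at 1285 nt, and Sec31a, which encodes a COPII coat protein, one at 2285 nt. The 3 were chosen after their values were seen, and scored 11, 14 and 10. The strand of the nearest gene was known for 233 of the 398 peaks. Within 5000 nt downstream of such a gene lay 27 stranded peaks, with 15 of them on the opposite strand. The 12 on the strand of the gene made up a share of 44.4% (27.6 to 62.7). Of all intergenic Pyicoclip peaks placed in this way the share was 54.8%. Among intergenic peaks over 30 nt it was 11 of 15 (73.3%, 48.0 to 89.1). Fisher's exact test, two-sided, did not separate the narrow from the wider peaks (adjusted p = 0.216 over 2 comparisons chosen after the data were seen). With 27 and 15 peaks, it could have missed a real difference. Most of the 15 wider peaks were over 60 nt, with 10 of 11 on the strand of the gene (90.9%, 62.3 to 98.4), a class that was not tested on its own. Upstream within 5000 nt, 23 of 44 stranded narrow peaks were on the strand of the gene (52.3%), against 7 of 13 over 30 nt (53.8%, exact test, adjusted p = 1).

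At any distance, 62 of 123 downstream narrow intergenic peaks (50.4%, 41.7 to 59.1) and 52 of 99 upstream ones (52.5%, 42.8 to 62.1) were on the strand of the gene. Each of these intervals held 50%. Among intergenic peaks over 30 nt, 30 of 44 downstream (68.2%, 53.4 to 80.0) and 12 of 36 upstream (33.3%, 20.2 to 49.7) were on the strand of the gene. These shares at any distance were not tested against those of the narrow peaks. The minus strand held 196 narrow intergenic peaks and the plus strand 188, or 51.0% on the minus strand among stranded ones (46.1 to 56.0).

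No strand was given for 14 narrow intergenic peaks (3.52%, 2.11 to 5.82), against 6.62% of all Pyicoclip peaks. Narrow peaks inside genes had no strand in 21 of 678 (3.1%), which did not differ detectably (Fisher's exact test, two-sided, adjusted p = 1 over 3 comparisons). Of the peaks without strand, 5 of 14 lay within 1000 nt of a gene (35.7%), and the median distance was 3129.5 nt. For the 384 stranded peaks the figures were 35 peaks (9.11%) and 15149.5 nt. The 5 were those of Arl2bp, Tmem189, Slc25a17, Map3k9 and Lrrc10b, of which Arl2bp, Slc25a17, Map3k9 and Lrrc10b have a strand in the promoter table and had the peak upstream of the gene. This comparison was chosen after the data were seen and was not tested.

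The second question was whether the narrow intergenic peaks cluster along the chromosomes. They did not lie in groups. A single pair was within 10 kb, at chromosome 2, 168845708 to 168845728 on the minus strand with a score of 10 and 168848872 to 168848900 on the plus strand with a score of 19. The pair was 3144 nt apart on opposite strands, and 36312 and 33140 nt from the nearest gene, the small nucleolar RNA gene Gm25214. Its 2 peaks made up 0.503% of the 398 (0.138 to 1.81). No peak had another within 1000 nt, and 15 (3.77%, 2.3 to 6.12) had one within 100 kb.

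Of the other 7 pairs of neighbours within 100 kb, Foxd3 lay between the closest. Its span, 99656299 to 99658671 on chromosome 4, separated a plus-strand peak at 99649726 to 99649754 with a score of 13 from a peak without strand at 99663125 to 99663145 with a score of 10. Ccnd1, the gene of cyclin D1, was the nearest gene of a minus-strand peak at chromosome 7, 144960289 to 144960313, with a score of 12. It was also nearest to a plus-strand peak 26912 nt further on, at 144987225 to 144987251, with a score of 14. Chsy3 on chromosome 18, a chondroitin synthase gene, was nearest to a pair 27704 nt apart, both on the plus strand with scores of 11 and 10. The neighbours of Foxd3, Ccnd1 and Chsy3 were named after the values were seen.

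The median gap from a narrow intergenic peak to the next was 2127269 nt. Among 678 narrow peaks inside genes, 5.9% had another of their kind within 10 kb (4.36 to 7.93). Of the 199 intergenic peaks over 30 nt, which are fewer, 35.7% did (29.4 to 42.5). These intervals lie above that of the narrow intergenic peaks. The narrow peaks inside genes are, however, more in number and lie in less of the length, 53.9% of which was gene-free. What this does to their share was not tested. The differences were not tested, since a peak and its neighbour are counted together and are not independent. Against all other Pyicoclip peaks, 5 narrow intergenic peaks (1.26%) had a neighbour within 1000 nt and 57 (14.3%) within 100 kb.

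**Figure D2:**
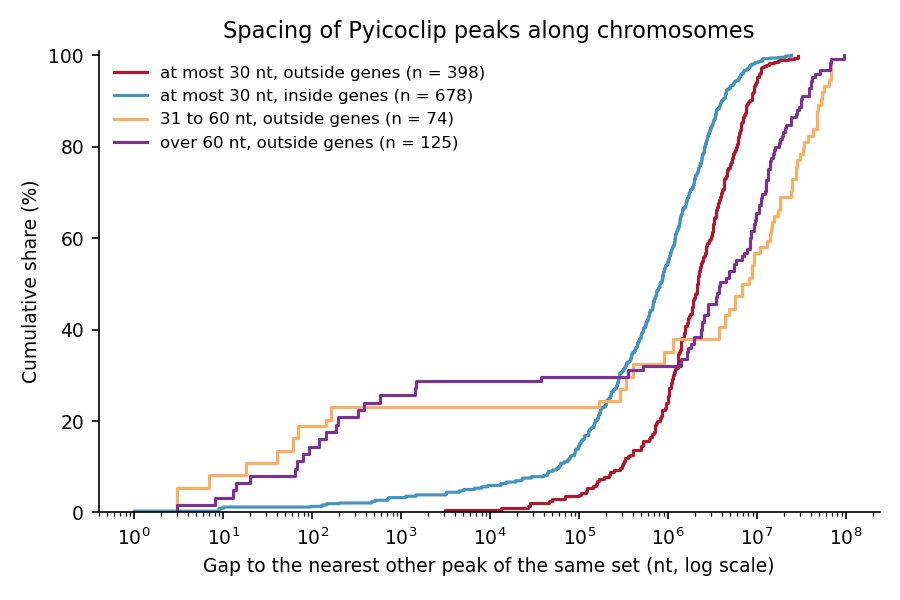
Cumulative share of Pyicoclip peaks (y axis, %) by the gap to the nearest other peak of the same set on the chromosome (x axis, nt, log scale, with 0 drawn at 1). The narrow intergenic peaks start at 3144 nt and reach 3.77% at 100 kb, while 23% of the intergenic peaks of 31 to 60 nt and 28.8% of those over 60 nt had a neighbour of their own set within 10 kb.

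The 5 neighbours within 1000 nt differed in score. A peak at chromosome 1, 167340410 to 167340438, with a score of 12, was 6 nt from a Pyicoclip peak of 141 nt with a score of 62 on the same minus strand, which CIMS, Piranha and PIPE-CLIP also listed. The nearest gene was Tmco1, an endoplasmic reticulum channel gene. The Hsp90ab1 peak was 26 nt from a Pyicoclip peak without strand at 45573165 to 45573245, with a score of 14, which lay in the Hsp90ab1 span. At Gm15569, a peak of score 10 was 55 nt from a plus-strand peak of score 50. The neighbours of the Arl2bp and Atp6v1h peaks were 375 and 63 nt away. Tmco1, Gm15569 and Atp6v1h were named after their values were seen.

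Over all chromosomes there were 2.73 narrow intergenic peaks per 10 Mb of gene-free length. The autosomes ranged from 2.16 on chromosome 7 to 4.39 on chromosome 9, with 16 and 25 peaks. Chromosome X had 19 peaks in 117 Mb, or 1.62 per 10 Mb, and chromosome Y had 1 peak in 87.6 Mb, or 0.114 per 10 Mb. Both were below every autosome. Mitochondrial DNA had none. The gene-free lengths were not limited to bases that reads can be aligned to. Differences between chromosomes were not tested.

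**Figure D3:**
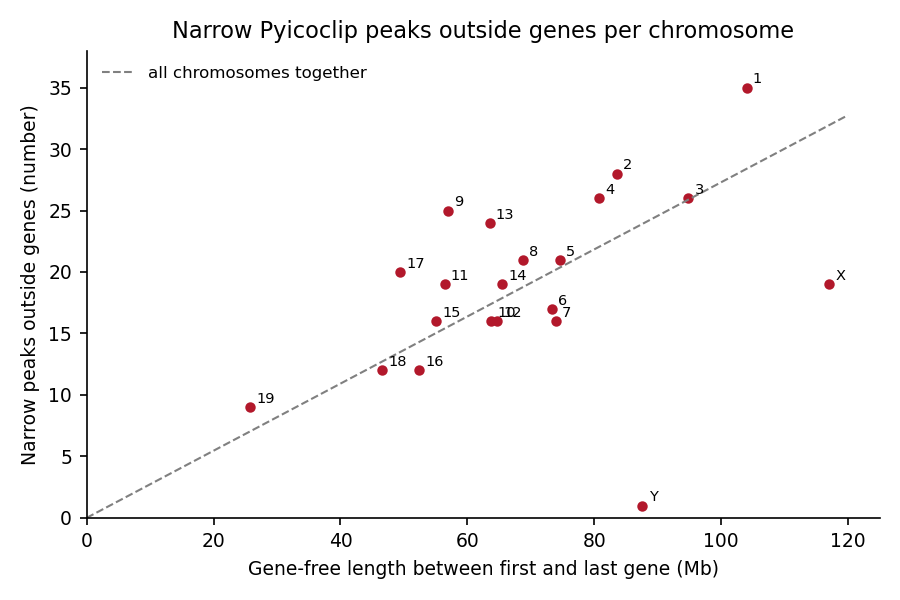
Number of narrow intergenic peaks (y axis) against the gene-free length of each chromosome (x axis, Mb), 1 point per chromosome, with the density over all chromosomes, 2.73 per 10 Mb, as the dashed line. Chromosomes X and Y lie below the line at 19 and 1 peaks. Some autosomes do too, such as chromosome 7 with 16 peaks, and chromosome 1 has the most, 35.

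The third question was the score. The highest among narrow intergenic peaks was 24, at chromosome 3, 122312964 to 122312991, on the minus strand, 7782 nt from Gm40190. Scores of 21 were found at chromosome 12, 26016436 to 26016462, 24661 nt from the long non-coding RNA gene Gm29835, at chromosome 14, 18406703 to 18406730, 39145 nt from the pseudogene Gm22350, and in the Map3k9 promoter window. Scores of 20 were found for 6 peaks. Their nearest genes were 4930432O09Rik at 2999 nt, Snx18, a sorting nexin gene of membrane traffic, at 4203 nt, Agmo, which encodes an enzyme of ether lipid breakdown, at 9691 nt, Gm30224 at 19808 nt, Gm51925 at 31945 nt and Gm31711 at 172356 nt. Of these 10 peaks, 8 were on the minus strand, and 1 was within 1000 nt of a gene.

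The median score was 12, with quartiles of 10 and 13.75, and 117 peaks (29.4%) stood at the lowest deposited score of 10. A score of 20 or more was reached by 10 peaks (2.51%). Narrow peaks inside genes were alike, with a median of 11, a maximum of 26 and 2.21% at 20 or more. Intergenic peaks of 31 to 60 nt had a median of 14.5 and a maximum of 77, and those over 60 nt a median of 20 and a maximum of 189, with 53.6% at 20 or more. Within the narrow range, too, wider peaks scored higher. Of 99 peaks of 18 to 22 nt, 3.03% scored 15 or more, with a maximum of 15. Of the peaks of 27 to 30 nt, 32.0% did, with a maximum of 24. Across the 398 peaks Pearson's r of width and score was 0.35 (Spearman's rho 0.34). That of gene distance and score was -0.01 (rho 0.04). Both are descriptions across peaks of the same libraries.

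**Figure D4:**
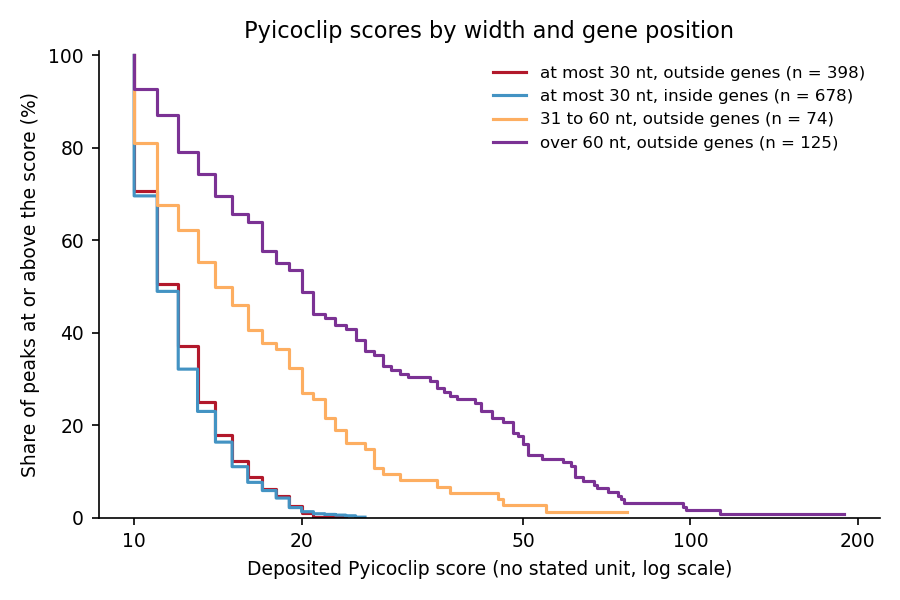
Share of Pyicoclip peaks at or above each deposited score (y axis, %; x axis, score on a log scale) for 4 sets by width and gene position. The 2 narrow sets run together and end at 24 and 26, while the intergenic sets of 31 to 60 nt and over 60 nt reach 77 and 189.

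The fourth question was which narrow intergenic peaks another caller also listed. At Snx18, 4930432O09Rik, Gm31711, Gm22350 and Gm40190, Piranha gave scores of 20, 20, 20, 21 and 24, and Gm30224 tied with the first 3 at 20. No other narrow intergenic peak had a Piranha score as high, and each of these scores was the same in Pyicoclip. In all, 354 of 398 narrow intergenic peaks overlapped a Piranha peak on the same strand by at least 1 nt (88.9%, 85.5 to 91.7), against 63.5% of all Pyicoclip peaks. Narrow peaks inside genes overlapped Piranha in 568 of 678 (83.8%, 80.8 to 86.4). The difference of 5.17 percentage points missed the threshold of 0.05 after adjustment (Fisher's exact test, two-sided, p = 0.0192, adjusted p = 0.0577 over 3 comparisons). The tests count peaks as units, from lists in which the libraries are not separate. Their p-values do not cover differences between libraries and may be too small. Intergenic peaks over 30 nt overlapped Piranha in 124 of 199 (62.3%, 55.4 to 68.8).

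Seen from the other list, the 354 peaks of Piranha under narrow intergenic Pyicoclip peaks were 70.9% of the 499 intergenic Piranha peaks (66.8 to 74.8) and 25% of all 1417. The other 145 intergenic Piranha peaks had a higher median score, 15 against 11, and a maximum of 63 against 24. By score, the overlap of narrow intergenic peaks was 82.9% of 117 peaks at 10 (75.1 to 88.7) and 35 of 35 at 17 and over (90.1 to 100). In between it was 86.2% at 11, 92.5% at 12, 93.8% at 13, 86.2% at 14 and 94.4% at 15 to 16. Inside genes the shares were 78.2% at 10 and 92.3% at 17 and over. A Piranha score below 10 would not be listed, so near this limit a lower Piranha score counts as no overlap. The part of this in the rise with score was not tested.

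**Figure D5:**
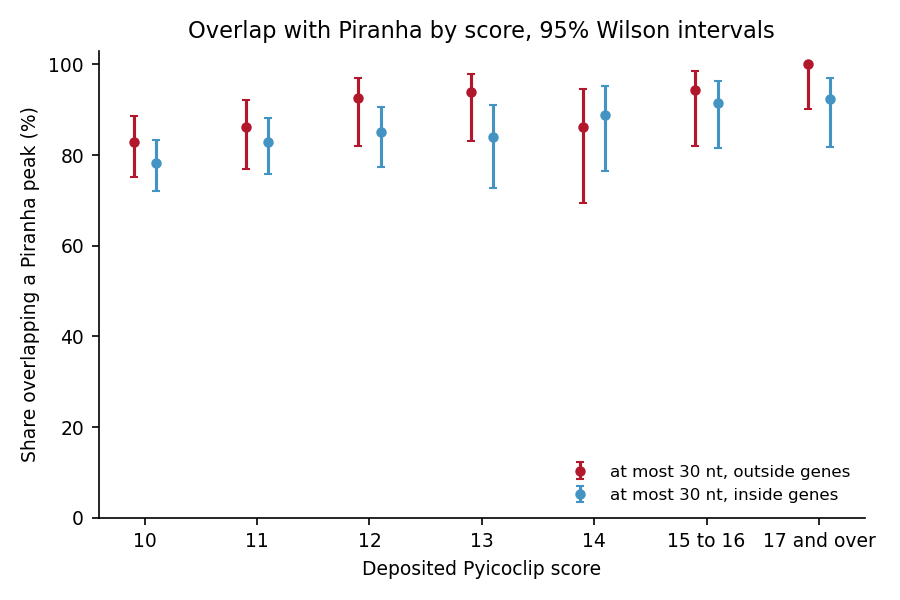
Share of narrow Pyicoclip peaks that overlapped a Piranha peak (y axis, %, with 95% Wilson intervals) by deposited Pyicoclip score (x axis), outside and inside genes. Outside genes the share goes from 82.9% at a score of 10 to 100% at 17 and over, and the intervals of both sets overlap at each score.

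The scores of the 2 callers were mostly identical at narrow intergenic peaks. Of the 354, 323 (91.2%) had the same score in Piranha and Pyicoclip, 31 had a lower score in Piranha and none a higher one. Inside genes 513 of 568 (90.3%) had the same score. Each Piranha peak began 1 nt past a multiple of 20, and 353 of the 354 were 20 nt wide. The exception, near Gm29835, was 40 nt wide with a score of 10.5, against 21 in Pyicoclip. Each of the 354 narrow intergenic peaks overlapped exactly 1 Piranha peak, by 2 to 25 nt with a median of 13 nt.

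The Piranha peak held the end of the Pyicoclip peak with the lower coordinate in 340 of 354 (96.0%, 93.5 to 97.6) and the other end in 1. This was so on both strands. On the plus strand, where the lower coordinate is the 5′ end, it held that end in 160 of 168, and on the minus strand, where it is the 3′ end, in 175 of 180. All 323 peaks with identical scores were among the 340, and 17 of the 31 with a lower Piranha score were. None of the 6 peaks without strand that overlapped Piranha had the same score, among them Map3k9 with 21 in Pyicoclip and 19 in Piranha and Slc25a17 with 17 and 15.

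In Piranha, 44 narrow intergenic peaks (11.1%) had no counterpart, and no other list held them. Their scores had a median of 11 and a maximum of 15, and 8 of them had no strand. The 2 of score 15 lay 75426 nt from Gm41779 and 3945 nt from 2400006E01Rik, 2 long non-coding RNA genes named after their values were seen.

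CIMS, which looks for crosslink-induced mutations in the reads, listed a site at 11 narrow intergenic peaks (2.76%, 1.55 to 4.88), against 5.03% of all Pyicoclip peaks. Narrow peaks inside genes overlapped CIMS in 13 of 678 (1.92%, 1.12 to 3.25), and intergenic peaks over 60 nt in 14.4% (9.31 to 21.6). All 11 narrow intergenic peaks with a CIMS site also overlapped Piranha. None of the 11 had a CIMS score above its Pyicoclip score. The CIMS scores there ran from 10 to 19 with a median of 12, below the median of 27 over all 169 CIMS peaks, and the number m in the CIMS names from 3 to 12. The peak near Gm40190 had the highest Pyicoclip score, 24, and a CIMS score of 16 with m = 3. Near Gm18482 all 3 callers gave 19, with m = 7, and near Gm18518 CIMS gave 13 and the other callers 18, with m = 6.

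The highest m was 12, near Ecpas, which encodes a proteasome adaptor, at chromosome 4, 58919095 to 58919119, where Pyicoclip and CIMS gave 15 and Piranha 12. Next was 11 near Enpp3, an ectonucleotidase gene, at chromosome 10, 24839500 to 24839528, where Pyicoclip and CIMS gave 14 and Piranha 11. The remaining sites were near 4933406G16Rik, Klhl36, Gm46574, Gm12240, 2900024J01Rik and Fsip2, with Pyicoclip scores of 13, 13, 12, 11, 10 and 10 and m of 3 or 4. The site of 2900024J01Rik, 331 nt before a long non-coding RNA gene and on its strand, was the nearest to a gene. The site of Fsip2, at 174461 nt, was the farthest. It tied with 2900024J01Rik in all 3 scores and in m, and was named after its values were seen.

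PIPE-CLIP listed none of the 398 narrow intergenic peaks, on either strand (a share of 0, with an upper limit of 0.956% by the Wilson interval and of 0.754% by the rule of 3 counts). Of all Pyicoclip peaks 30.7% overlapped a PIPE-CLIP cluster. Narrow peaks inside genes had 1 of 678 (0.147%), with no detectable difference (Fisher's exact test, two-sided, adjusted p = 1). No PIPE-CLIP cluster was narrower than 30 nt, and the part of width in this result was not tested. Intergenic peaks of 31 to 60 nt overlapped PIPE-CLIP in 23% and those over 60 nt in 68.8% (60.2 to 76.3). PIPE-CLIP had 199 clusters outside genes. The median gap from a narrow intergenic peak to the nearest cluster was 541319.5 nt, and 4 had one within 1000 nt, namely those of Tmco1, Hsp90ab1, Gm15569 and Rundc3a at 10, 29, 58 and 578 nt.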

How the data were processed

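The deposited values are 4 peak lists over all 3 libraries, with the authors' score per peak. The submitters' processing notes name cutadapt, Novoalign and the build mm10. Not given in the sources used here: the callers' settings, what the score counts, and how the libraries were combined. Peaks at scores below 10 were not analysed here.

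Genes were the spans of a RefSeq table of GRCm38.p6, which shares its coordinates with mm10. Gene strands came from the RefSeq promoter table, for 27024 of 49976 genes. Its strand orientation was checked on 1839 overlapping window pairs, which all matched. A genome sequence was not used.

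Overlap meant at least 1 nt on the same strand, with peaks without strand matching either. Shares have 95% Wilson intervals. Shares of narrow peaks outside and inside genes were compared by two-sided Fisher's exact tests, adjusted by Benjamini-Hochberg. Functions were tested on simulated data. The peaks, gene lists and tests were chosen with earlier results of these data known. Genes named are the nearest genes of the 10 highest-scoring peaks, the 10 nearest to a gene, up to 10 in CIMS, those in runs within 10 kb, the first 5 by Piranha score, with ties ordered by Pyicoclip score and position, and those in promoter windows. Others are marked. Python 3.11.15 with numpy 2.4.6, pandas 2.3.3, scipy 1.17.1 and matplotlib 3.10.9 was used.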

Additional observations from a re-analysis of the deposited data

How the results depend on the processing

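Of 72 values under 10 other settings, 62 kept their side of the threshold or stayed within the interval of the main value. With a width limit of 25 nt, 241 peaks were left and the share within 10 kb of another was 0%. With scores of at least 15, 71 peaks were left, with a median score of 16. Of these 97.2% overlapped Piranha and 5.63% CIMS, and 0% lay within 10 kb of another. When an overlap had to cover 50% of a Pyicoclip peak, 49% overlapped Piranha. At the main setting the median overlap was 13 nt, for narrow intergenic peaks of a median width of 25 nt. The cause of the lower share was not tested. Windows of 1 kb and 100 kb gave 0% and 3.77% of peaks with a neighbour. No setting took any of the 3 differences from narrow peaks inside genes past the threshold. Leaving out a library was not possible, because the lists do not separate them. No paired analysis was possible because there was 1 group and no value per library.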

Other observations

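Some narrow intergenic peaks lay far from any gene. The farthest, at chromosome 1, 141838180 to 141838203, on the plus strand, was 539974 nt from the small nuclear RNA gene Gm25457, with scores of 13 in Pyicoclip and 12 in Piranha. The next, at chromosome 14, 82876238 to 82876265, on the minus strand, was 529366 nt from the small nucleolar RNA gene Gm24774, with a score of 10 and no Piranha peak. The single peak of chromosome Y, at 43577325 to 43577350 on the minus strand, scored 16 in both lists and was 376269 nt from Gm21241. Peaks near the pseudogene Rpl21-ps5 and near Zfat, a zinc finger gene, were 351446 and 350271 nt away, with scores of 13 and 14. These 5 peaks were named after their values were seen.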
